A study of Mus musculus with 28 samples.

Results

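The miR-200 family was followed in small RNA libraries of alveolar macrophages (AM), through its 5 main strands, mmu-mir-200a-3p, mmu-mir-200b-3p, mmu-mir-200c-3p, mmu-mir-141-3p and mmu-mir-429-3p. The members were chosen by name, and all 5 were listed in each of the 4 deposited tables, among 607 miRNAs listed in any of them. The AM came from bronchoalveolar lavage of male and female mice, 12 weeks old, that were exposed for 3 h to filtered air (FA) or to ozone (O3) and then left to recover for 4 h. The co-ex mice carried the human SP-A1 and SP-A2 transgenes (variants 6A2 and 1A0) on a C57BL/6J background without mouse SP-A. The KO mice lacked SP-A and carried no transgene, so both lines share the loss of the mouse gene. The strain given for the samples is C57BL/6, and the females were synchronized for the estrous cycle. There were 28 libraries in 8 groups, with 4 libraries in each of the groups co-ex females FA, co-ex females O3, co-ex males FA and co-ex males O3, and 3 in each of KO females FA, KO females O3, KO males FA and KO males O3. The question was whether the level of the family after O3 differed from that after FA in each line and sex.

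A miRNA is cut from a hairpin in a longer transcript and directs the silencing complex to messenger RNAs that pair with its seed, bases 2 to 8 from the 5′ end. The miR-200 family is known for its high expression in epithelial cells, where it represses the transcription factors Zeb1 and Zeb2 and so keeps E-cadherin expressed. Macrophages are not known as a main source of the family, whereas the lavage fluid from which AM are collected can also hold epithelial cells of the airways and alveoli.

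The mature sequences are shown with the seed in capitals, since the seed divides the family in 2 groups. They are given 5′ to 3′ from RefSeq on GRCm38.p6, where all 5 members were matched by name. The first group holds mmu-mir-200b-3p, mmu-mir-200c-3p and mmu-mir-429-3p.
mmu-mir-200b-3p: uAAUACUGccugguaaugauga
mmu-mir-200c-3p: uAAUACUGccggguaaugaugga
mmu-mir-429-3p: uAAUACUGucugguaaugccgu
The second group holds mmu-mir-200a-3p and mmu-mir-141-3p.
mmu-mir-200a-3p: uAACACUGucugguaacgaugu
mmu-mir-141-3p: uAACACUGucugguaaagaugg
Counted from 1 at the 5′ end, the seed of mmu-mir-200b-3p differs from that of mmu-mir-200a-3p by C4U (mmu-mir-200a-3p first). The members of a seed group are close over their whole length, since mmu-mir-200a-3p and mmu-mir-141-3p share 20 of 22 bases and differ by C17A and U22G. mmu-mir-200b-3p and mmu-mir-200c-3p also share 20 of 22 bases and differ by U11G and A22G, with 1 further base at the 3′ end of mmu-mir-200c-3p (23 against 22 bases). Among 1738 mature mouse miRNAs in RefSeq, 3 have the seed AAUACUG and 2 the seed AACACUG, and all of these are members of the family. Counts of such a pair rest on few bases in each read, and an exchange of reads between its members cannot be seen in the deposited values.

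The hairpins lie in 2 clusters that do not follow the seeds. On GRCm38.p6 the hairpins of Mir429 (chr4:156053905-156053987), Mir200a (chr4:156054896-156054985) and Mir200b (chr4:156055681-156055750) lie within 1846 bp on the minus strand of chromosome 4. All 3 lie in the gene Ttll10, on its strand, outside its exons, and that of Mir429 also overlaps an exon of the processed transcript Gm13648. The hairpins of Mir141 (chr6:124717914-124717985) and Mir200c (chr6:124718322-124718390) lie within 477 bp on the minus strand of chromosome 6. Both are in an intron of Gm15884, annotated as antisense RNA, and that of Mir141 overlaps an exon of Gm29008, of the biotype TEC. Each seed group therefore has members on both chromosomes.

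The libraries held between 41542 and 2082034 reads on miRNAs, with a median of 490152, and levels across tables are given as RPM, reads per 1000000 of these reads. Where a library held no read of a miRNA, up to 3 reads remain possible at its depth, equal to between 1.44 and 72.2 RPM by library (counting error only). mmu-mir-223-3p, a defining miRNA of myeloid cells, was between 1107 and 15332.5 RPM and was detected in every library. mmu-mir-223-5p, mmu-mir-142a-3p and mmu-mir-511-3p, which belong to the same list of 7 myeloid miRNAs, reached 0 in at least 1 library each. The levels of the myeloid list summed to between 2937 and 20025 RPM.

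The family took between 0.123% and 3.58% of the miRNA reads of a library, with a median of 1.15%. The most abundant member, mmu-mir-200b-3p, had a median of 5777 RPM over the 28 libraries, about as high as the 5454 RPM of mmu-mir-223-3p, and it ranked between 12 and 98 among the miRNAs of a library. mmu-mir-200c-3p had a median of 2745 RPM, mmu-mir-200a-3p of 1278 RPM and mmu-mir-429-3p of 980.2 RPM. These 4 members were detected in all 28 libraries, with more than 3 reads in each. mmu-mir-141-3p was far lower, with a median of 17.8 RPM, 0 reads in 7 libraries and at most 3 reads in 11. Ligation and amplification depend on sequence, so these are levels of reads and not of molecules.

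The sum of the 5 members was highest in co-ex females O3, at 23187 ± 11832 RPM (SD, n = 4), followed by KO females O3 at 19621 ± 5086 RPM (n = 3) and KO males O3 at 16332 ± 1808 RPM (n = 3). It was 10957 ± 4882 RPM in co-ex females FA (n = 4), 9443 ± 8921 RPM in co-ex males O3 (n = 4), 8743 ± 7872 RPM in co-ex males FA (n = 4) and 7828 ± 10271 RPM in KO males FA (n = 3). The lowest mean was that of KO females FA, at 2321 ± 1102 RPM (n = 3). Of the 7 pairs of neighbours in this order, KO males O3 and co-ex females FA was the pair whose means lay further apart than the larger of their SDs, by 1.10 times that SD. The other neighbours did not differ beyond their spread. Tables were normalized separately and the lines were not compared by a test of level. The plot of the level of each member shows the 3 libraries of KO females FA low together, though not below all other libraries. KO males FA replicates 1 and 2 and co-ex males FA replicate 3 were about as low in the sum. A single library of KO males FA lies among the O3 libraries.

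**Figure D1:**
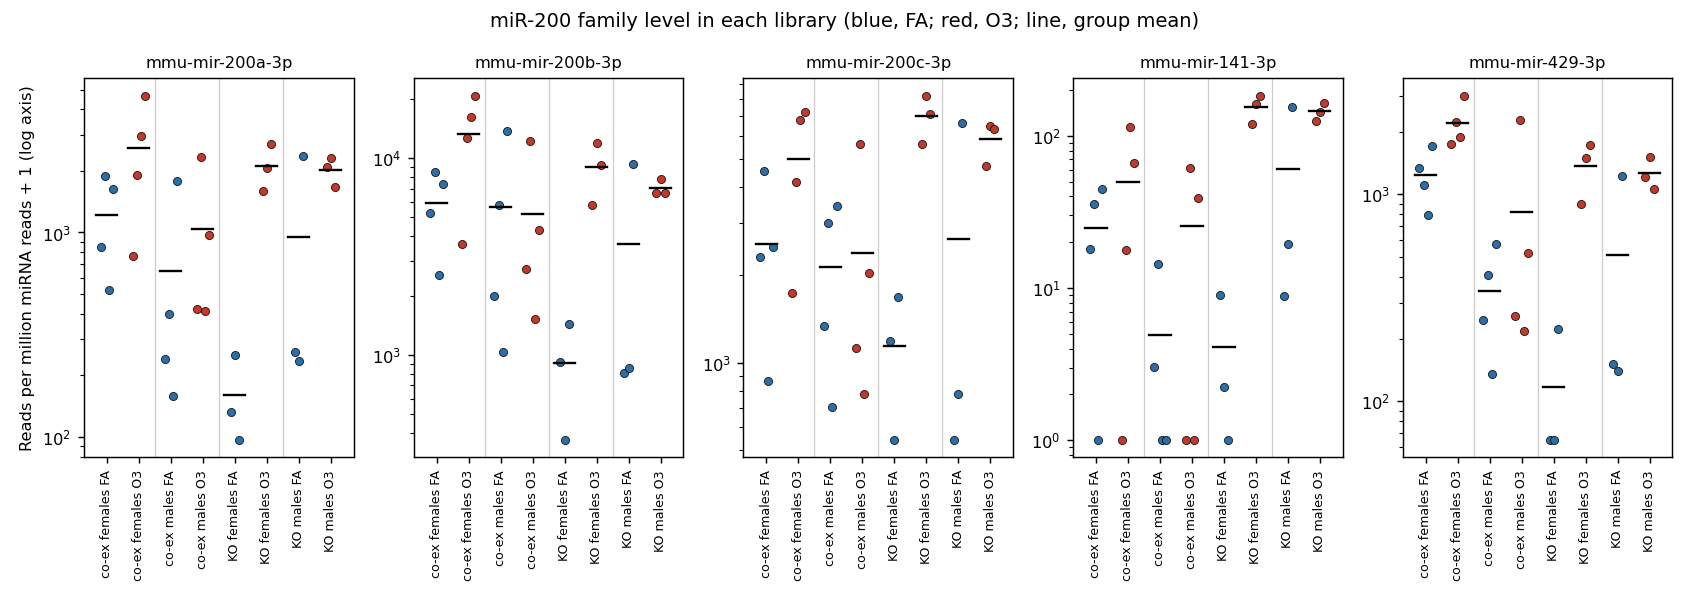
Level of each miR-200 member (RPM plus 1, log axis) in the 28 libraries by group, with blue points for FA, red points for O3 and a black line for the group mean. In KO females the 3 O3 libraries lie above the 3 FA libraries for all 5 members, and in KO males 1 of the 3 FA libraries lies as high as the O3 libraries.

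In each order of the single members, KO females FA was the lowest group, with 159 ± 81.5 RPM of mmu-mir-200a-3p, 907 ± 533 RPM of mmu-mir-200b-3p, 1136 ± 570.4 RPM of mmu-mir-200c-3p, 3.07 ± 4.29 RPM of mmu-mir-141-3p and 116 ± 91.1 RPM of mmu-mir-429-3p (n = 3). The 3 highest means were those of O3 groups for mmu-mir-200a-3p, mmu-mir-200b-3p, mmu-mir-200c-3p and mmu-mir-429-3p. For mmu-mir-141-3p they were KO females O3 (154 ± 33.1 RPM, n = 3), KO males O3 (144 ± 19.8 RPM, n = 3) and KO males FA (59.7 ± 80.8 RPM, n = 3). KO males O3 and KO males FA differed by 1.04 times the larger SD for this member, while KO females O3 and KO males O3 did not differ beyond their spread. For mmu-mir-429-3p the highest group, co-ex females O3 (2223 ± 558 RPM, n = 4), was above KO females O3 (1375 ± 426 RPM, n = 3) by 1.52 times the larger SD. For mmu-mir-200a-3p the third group, KO males O3 (2027 ± 331 RPM, n = 3), was above the fourth, co-ex females FA (1221 ± 641 RPM, n = 4), by 1.26 times the larger SD.

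In KO females all 5 members were higher after O3 than after FA. The normalized value of mmu-mir-200a-3p was 73.9, 149 and 49.6 in the FA libraries and 799.6, 986 and 1329 in the O3 libraries. That of mmu-mir-200b-3p was 521, 219 and 745 after FA and 2898, 5716 and 4526 after O3. For both, every O3 library was above every FA library, and the lowest O3 value was several times the highest FA value. The value of mmu-mir-200c-3p was 669, 324 and 874 after FA and 2835, 3937 and 3487 after O3. For mmu-mir-429-3p it was 36.1, 38.1 and 115 after FA and 454, 715 and 847 after O3. These also did not overlap between the groups. mmu-mir-141-3p was at 4.52, 0.732 and 0 after FA, which are 8, 1 and 0 reads, and at 59.4, 77.5 and 89.6 after O3, which are 70, 18 and 116 reads. It was near its floor after FA and well above it in each O3 library.

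Each table was fitted by limma on log2(value + 1) over all miRNAs that passed a filter on low values, with an adjusted p under 0.1 as the threshold. In KO females the change with O3 was 3.62 on the log2 scale for mmu-mir-200a-3p (standard error 0.49, limma adjusted p = 0.00523) and 3.26 for mmu-mir-200b-3p (standard error 0.48, limma adjusted p = 0.00523). It was 2.56 for mmu-mir-200c-3p (standard error 0.39, limma adjusted p = 0.00523), 3.56 for mmu-mir-429-3p (standard error 0.57, limma adjusted p = 0.00601) and 5.15 for mmu-mir-141-3p (standard error 1.09, limma adjusted p = 0.0166). On the normalized scale the mean after O3 was 11.4 times the mean after FA for mmu-mir-200a-3p, 10.6 times for mmu-mir-429-3p, 8.85 times for mmu-mir-200b-3p and 5.49 times for mmu-mir-200c-3p. The fitted change of mmu-mir-141-3p depends on the pseudocount and was 6.68 with a pseudocount of 0.1. So 5 of 5 members rose, where 10% of the 319 miRNAs tested rose and 3.13% fell, and every O3 library was above every FA library for 5 of 5 members and for 19.1% of all miRNAs. The median change of the members was 3.56 and that of all miRNAs tested was 0.06. The study assigned 4 mice to each group, and the p-values take each library as 1 mouse, which the sample labels do not state.

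mmu-mir-141-3p was the member that depended on a single library, since without KO females O3 replicate 3 its change was 5.02 with a limma adjusted p of 0.114. In bulk libraries such as these, more cells of a type and more of a miRNA per cell cannot be told apart.

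In KO males a single FA library set the result. The normalized value of mmu-mir-200b-3p was 1146, 1142 and 13659.9 after FA and 7801, 9049.7 and 8124 after O3. For mmu-mir-200c-3p it was 768, 1038 and 9701 after FA and 5551, 7468 and 7766 after O3. In both cases FA replicate 3 was above the 3 O3 libraries, and the other FA libraries were below all of them. mmu-mir-200a-3p was at 367, 311 and 3450.4 after FA and at 2465, 2668 and 2039 after O3. mmu-mir-429-3p was at 214, 184 and 1804 after FA and at 1429.6, 1756 and 1295 after O3. mmu-mir-141-3p was at 11.2, 24.5 and 224 after FA and at 147, 164 and 201 after O3. All 5 members thus shared the pattern, with FA replicate 3 between 9.07 and 12.5 times the mean of the other FA libraries and above every O3 library.

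With all 6 libraries the change with O3 in KO males was between 1.67 (mmu-mir-200b-3p) and 2.05 (mmu-mir-141-3p) on the log2 scale, and the limma adjusted p was between 0.722 and 0.768. None of the 5 members was called by limma, by edgeR or by DESeq2, and none had an unadjusted limma p under 0.05, with 32 of the 440 miRNAs tested under that value. Here 0.909% of all miRNAs rose and 0% fell, and 0 of 5 members and 7.73% of all miRNAs did not overlap with O3 above. The median change was 1.79 for the members and -0.04 for all miRNAs. The 95% interval reached from -0.56 to 3.90 for mmu-mir-200b-3p and from -0.23 to 3.90 for mmu-mir-429-3p. Each of these holds both 0 and the change of that member in KO females. For mmu-mir-141-3p the interval, from -0.44 to 4.53, held 0 but not its change of 5.15 in KO females. On recovered reads, the change was between 0.80 and 1.16 by edgeR and between 0.69 and 1.07 by DESeq2.

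Without KO males FA replicate 3, a comparison singled out after its values were seen, all 5 members rose. The change was 2.81 for mmu-mir-200a-3p, 2.86 for mmu-mir-200b-3p, 2.94 for mmu-mir-200c-3p, 3.27 for mmu-mir-141-3p and 2.89 for mmu-mir-429-3p. The limma adjusted p was between 7.18e-07 for mmu-mir-200b-3p and 3.69e-04 for mmu-mir-141-3p. The filter on low values follows the smaller group and then needed 2 libraries, which let 479 miRNAs in, and over the same 440 miRNAs as before the 5 members were also called (limma adjusted p up to 4.66e-04). Of the 479 miRNAs 13.8% rose, and for 22.5% every O3 library was above both FA libraries, as for 5 of 5 members. The mean after O3 was 7.06 times that of the remaining FA libraries for mmu-mir-200a-3p, 7.28 times for mmu-mir-200b-3p, 7.67 times for mmu-mir-200c-3p, 7.51 times for mmu-mir-429-3p and 9.56 times for mmu-mir-141-3p. No other library of KO males changed the number of members called when it was left out.

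KO males FA replicate 3 stood apart in other lists as well. Relative to the mean of the other FA libraries, the summed normalized value of this library was 11.1 times as high for the family, 13.9 times for 6 other epithelial miRNAs and 6.20 times for 5 miRNAs of multiciliated cells. It was 40.3 times as high for 3 mesenchymal miRNAs and 56.3 times for the lymphocyte miRNA mmu-mir-150-5p. It was 698 times as high for 2 endothelial miRNAs, 240.2 times for 2 muscle miRNAs and 3.24 times for 3 red cell miRNAs. The myeloid sum was at 16240.3 in this library and at 14289 on average in the others, but its members went opposite ways. mmu-mir-223-3p was at 0.336 times and mmu-mir-511-3p at 0.0613 times the mean of the other FA libraries, and mmu-mir-146a-5p was at 10.7 times and mmu-mir-155-5p at 7.85 times. The multiciliated sum of this library was 2209 RPM, below the 6681 to 10975 RPM of KO males O3, whereas its family sum of 19687 RPM was above theirs. The part of these miRNAs in the result was not tested.

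**Figure D2:**
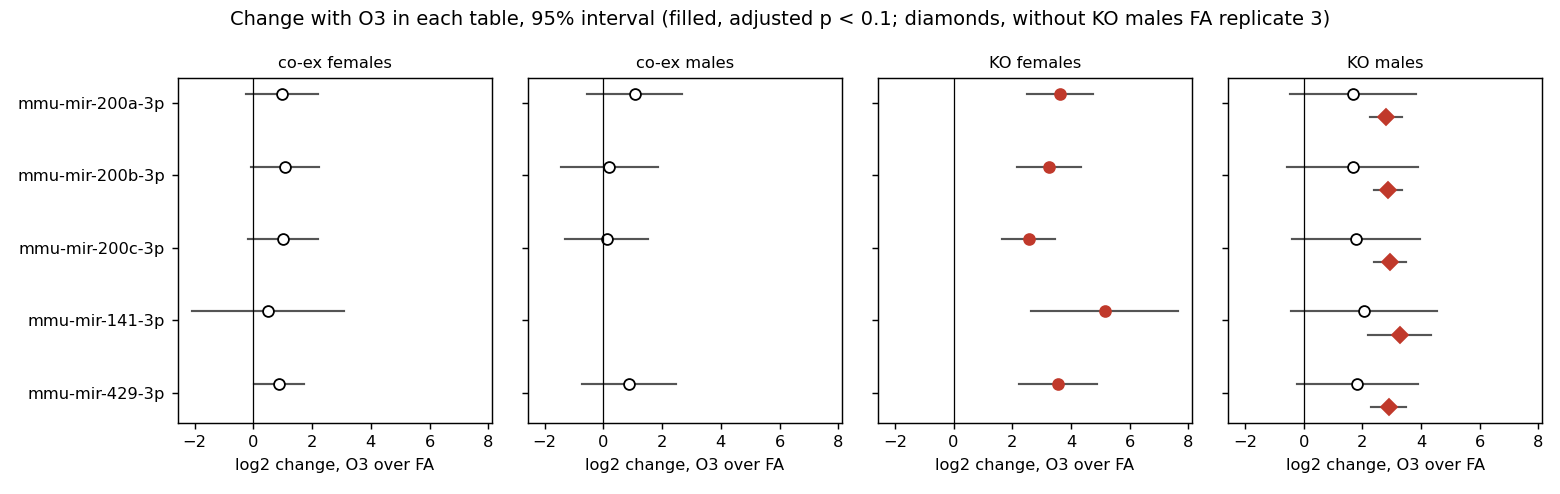
Change with O3 (log2, O3 over FA, limma) of each member in each table, with lines for the 95% interval; filled symbols have an adjusted p under 0.1, circles use all libraries and diamonds leave out KO males FA replicate 3. The 5 members in KO females and the 5 diamonds in KO males lie clear of 0, and mmu-mir-141-3p has no symbol in co-ex males because it did not pass the filter there.

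In co-ex females no member was called, although the values after O3 reached higher. mmu-mir-200a-3p was at 130.1, 318, 85.6 and 231 after FA and at 129, 295, 434 and 752 after O3. mmu-mir-200b-3p was at 807, 1432, 417 and 1052 after FA and at 611, 1969, 2384 and 3349 after O3. For both, O3 replicate 1 lay within the range of the FA libraries and replicates 3 and 4 above it. mmu-mir-200c-3p was at 352, 769.9, 141 and 351 after FA and at 289.6, 644, 1001 and 1168 after O3. mmu-mir-141-3p was at 2.63, 5.88, 0 and 6.21 after FA and at 0, 2.58, 16.6 and 10.5 after O3, with overlap between the groups. mmu-mir-429-3p was at 205, 187, 129 and 241.4 after FA and at 294, 347, 278 and 483 after O3. It was the one member whose groups did not overlap, as for 1.48% of all miRNAs.

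The change in co-ex females was 0.98 for mmu-mir-200a-3p, 1.06 for mmu-mir-200b-3p, 1.00 for mmu-mir-200c-3p and 0.88 for mmu-mir-429-3p on the log2 scale, each with a limma adjusted p of 0.778. The 95% interval was from 0.03 to 1.72 for mmu-mir-429-3p and from -0.10 to 2.22 for mmu-mir-200b-3p, so a 2-fold rise and a change near 0 both lie within them. mmu-mir-141-3p had a change of 0.50 (limma adjusted p = 0.918), and its sign turned when FA replicate 3 or O3 replicate 3 was left out (-0.12 and -0.08). The call of 0 members was the same with edgeR and with DESeq2, and mmu-mir-429-3p was the 1 member with an unadjusted limma p under 0.05, among 16 of 271 miRNAs. Of all miRNAs in co-ex females 0% rose and 0.369% fell. The median change was 0.98 for the members and -0.16 for all miRNAs.

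In co-ex males the libraries varied widely within both groups. mmu-mir-200b-3p was at 768, 1928, 357 and 3639 after FA and at 969, 4484, 566 and 1366 after O3. mmu-mir-200c-3p was at 512, 1001, 242 and 918 after FA and at 398, 2057, 289.6 and 646 after O3. O3 replicate 2 was the highest of the 8 libraries and FA replicate 3 the lowest for both. mmu-mir-200a-3p was at 91.7, 132, 54.5 and 474 after FA and at 149, 860.1, 153 and 308 after O3. mmu-mir-429-3p was at 94.8, 135, 46.3 and 152 after FA and at 90.5, 837, 80.7 and 165 after O3. The same libraries were the highest and the lowest for these members. mmu-mir-141-3p was at 0.783, 4.48, 0 and 0 after FA and at 0, 22.2, 0 and 12.1 after O3, did not pass the filter and was not tested.

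The change in co-ex males was 1.06 for mmu-mir-200a-3p, 0.87 for mmu-mir-429-3p, 0.20 for mmu-mir-200b-3p and 0.11 for mmu-mir-200c-3p, each with a limma adjusted p of 0.944. Of the 4 members tested 0 were called, also by edgeR and by DESeq2, and 0 had an unadjusted limma p under 0.05, among 11 of 312 miRNAs. Of all miRNAs in co-ex males 0% rose and 0% fell, and 2.24% had every O3 library above every FA library, with none of the members among them. Without O3 replicate 2 the change was -0.37 for mmu-mir-200b-3p and -0.47 for mmu-mir-200c-3p, and without FA replicate 3 it was -0.37 and -0.31, so no direction can be given for these members, and without FA replicate 1 that of mmu-mir-200b-3p was also below 0. Without O3 replicate 2 the change of mmu-mir-429-3p was 0.13. The median change was 0.53 for the members and 0.18 for all miRNAs.

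The difference between KO and co-ex in the change with O3 was tested within each sex. In females 2 of 5 members were called, where 8.71% of all miRNAs tested were called in either direction. mmu-mir-429-3p rose by 3.56 in KO and changed by 0.88 in co-ex on the log2 scale, a difference of 2.68 (95% interval 1.28 to 4.09, limma adjusted p = 0.0284). For mmu-mir-200a-3p the difference was 2.64 (95% interval 0.83 to 4.45, limma adjusted p = 0.0844). The mean levels of the lines lay further apart after FA than after O3. In co-ex and KO females mmu-mir-429-3p was at 1235 and 116 RPM after FA and at 2223 and 1375 RPM after O3. In the same order mmu-mir-200a-3p was at 1221 and 159 RPM after FA and at 2575 and 2121 RPM after O3. Levels were not compared by a test. The difference of mmu-mir-429-3p was called without any one library (limma adjusted p up to 0.0815), whereas that of mmu-mir-200a-3p was lost in 10 of 14 fits that left out a library, with a limma adjusted p between 0.102 and 0.215. The other 3 members missed the threshold, with a difference of 4.65 for mmu-mir-141-3p (95% interval 1.19 to 8.11, limma adjusted p = 0.111), 2.20 for mmu-mir-200b-3p (0.47 to 3.93, limma adjusted p = 0.124) and 1.56 for mmu-mir-200c-3p (-0.13 to 3.24, limma adjusted p = 0.341). The median difference was 2.64 for the members and 0.48 for all miRNAs tested.

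In males limma called 0 of 4 members and 0% of 305 miRNAs for a difference between KO and co-ex in the change with O3, and edgeR called 0 members. The differences were between 0.63 for mmu-mir-200a-3p (95% interval -2.05 to 3.32) and 1.69 for mmu-mir-200c-3p (-0.85 to 4.23), with limma adjusted p from 0.949 to 0.966. No member and 6 of the 305 miRNAs had an unadjusted p under 0.05. Without KO males FA replicate 3 the differences were between 1.75 for mmu-mir-200a-3p and 2.83 for mmu-mir-200c-3p, and 0 members were called.

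No member was called for a difference between the sexes in the change with O3, in either line, by limma or edgeR, with 0% of 249 miRNAs called in co-ex and 0% of 309 in KO. In co-ex the male minus female difference was -0.90 for mmu-mir-200c-3p (95% interval -2.84 to 1.05), -0.86 for mmu-mir-200b-3p (-3.0 to 1.28), 0.09 for mmu-mir-200a-3p (-2.04 to 2.21) and -0.01 for mmu-mir-429-3p (-1.83 to 1.81). The intervals hold differences of more than 2-fold either way, and 0 members and 8 miRNAs had an unadjusted limma p under 0.05. In KO the difference was between -3.11 for mmu-mir-141-3p (95% interval -6.31 to 0.10) and -0.77 for mmu-mir-200c-3p (-3.14 to 1.61), with 0 members and 17 miRNAs at an unadjusted limma p under 0.05. Without KO males FA replicate 3 that of mmu-mir-141-3p was -1.88, and that of mmu-mir-200c-3p turned sign to 0.38. The comparisons between lines and those between sexes share libraries and are not independent.

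The make-up of the family varied less than its level, and mmu-mir-200b-3p and mmu-mir-200c-3p together were the bulk of its reads in all libraries. mmu-mir-200b-3p took between 46.2% and 70.2% of the family's reads in the 16 co-ex libraries and between 30.0% and 50% in the 12 KO libraries. mmu-mir-200c-3p took between 17.7% and 34.9% in co-ex and between 30.6% and 51.3% in KO. mmu-mir-141-3p, from the same cluster as mmu-mir-200c-3p, took at most 0.486% in co-ex and at most 1.04% in KO. The part from chromosome 6 was larger in KO than in co-ex by the median, with overlapping ranges. The reads of the chromosome 4 cluster were between 1.86 and 4.65 times those of the chromosome 6 cluster in co-ex (median 3.04) and between 0.936 and 2.22 times in KO (median 1.65). These ratios are within libraries and need no scaling between tables, and they are given as a description without a test. The library codes of co-ex and KO run in separate series, so line cannot be told apart from library series. Within KO, the codes of KO females FA replicates 2 and 3 and of KO males FA replicate 3 are higher than all others of their tables. Code and exposure thus coincide in part in KO. What the codes mark is not stated, and their part in the changes with O3 was not tested.

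Within KO females the make-up also differed between FA and O3. The chromosome 4 cluster was 0.936, 1.25 and 1.04 times the chromosome 6 cluster in the FA libraries and 1.43, 1.85 and 1.87 times in the O3 libraries, with no overlap, and with 3 libraries in each group no test of a single ratio was made. mmu-mir-200c-3p took between 44.3% and 51.3% of the family after FA and between 33.9% and 40.2% after O3, a lower share at a higher level. The share of mmu-mir-200a-3p was 5.67%, 20.4% and 2.78% in the FA libraries of KO females, the widest range of any group, and 11.3%, 8.63% and 12.9% after O3. In KO males the cluster ratio was 2.22, 1.54 and 1.91 after FA and 2.05, 1.77 and 1.44 after O3, and these overlapped. KO males FA replicate 3 (1.91) did not stand apart in this ratio, although it did in level.

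**Figure D3:**
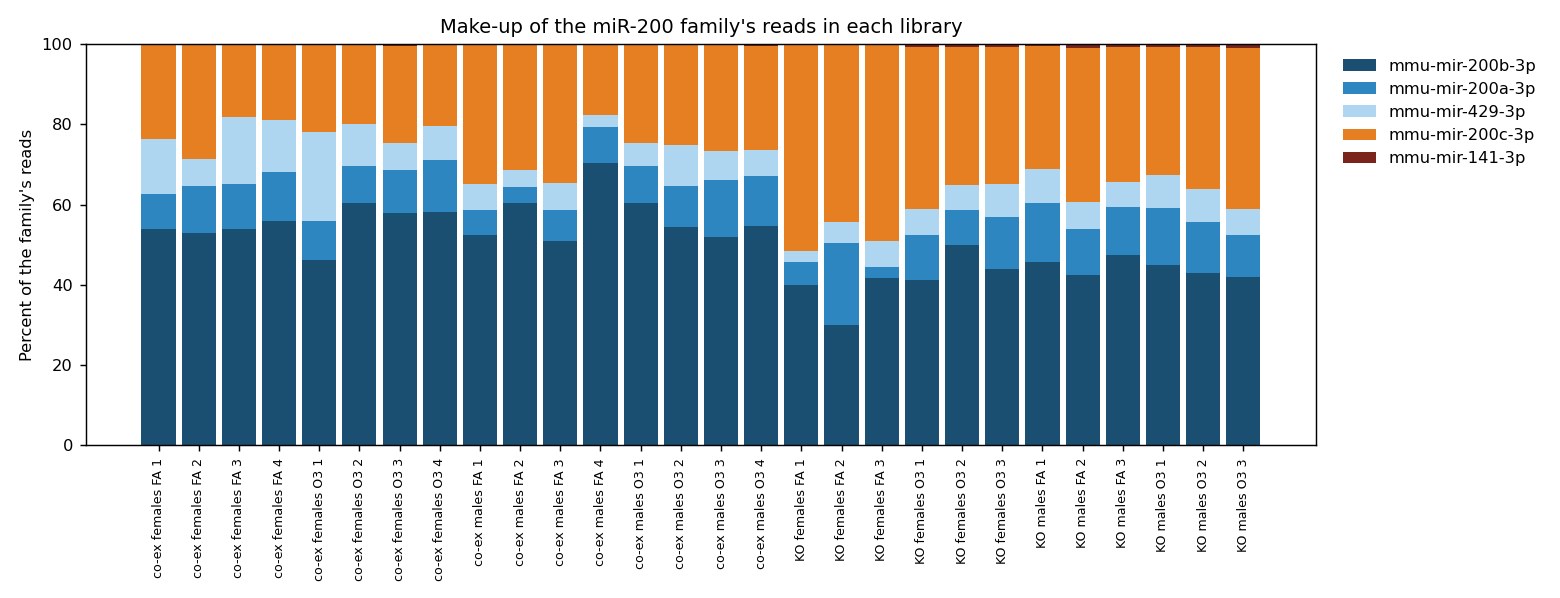
Percent of the family's reads that each member took in each of the 28 libraries, with blue shades for the members of the chromosome 4 cluster and orange and brown for those of the chromosome 6 cluster. mmu-mir-200c-3p takes 17.7% to 34.9% in co-ex and 30.6% to 51.3% in KO, and mmu-mir-141-3p is barely visible in any bar.

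The other strands of the hairpins were much lower. Of the 5 other strands, mmu-mir-200a-5p and mmu-mir-200b-5p were listed in all 4 tables and mmu-mir-141-5p in that of KO males, and mmu-mir-200c-5p and mmu-mir-429-5p were not listed. Those of the 2 hairpins listed throughout are shown because they share a seed that neither group of 3p strands has.
mmu-mir-200a-5p: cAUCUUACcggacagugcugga
mmu-mir-200b-5p: cAUCUUACugggcagcauugga
The reads of mmu-mir-200b-3p were between 14.5 and 118 times those of mmu-mir-200b-5p, with a median of 30.9. In KO females mmu-mir-200b-5p was at 20.3, 13.9 and 22.3 after FA and at 200.3, 151 and 161 after O3, with no overlap. It rose by 3.13 on the log2 scale (standard error 0.65, limma adjusted p = 0.0157), beside 3.26 for its 3p partner. mmu-mir-200a-5p was at 26.5, 22.7 and 35.6 after FA and at 27.2, 77.5 and 52.5 after O3, which overlap. Its change of 0.77 was not called (limma adjusted p = 0.598), beside 3.62 for its 3p partner, and the difference between the partners was not tested. The O3 library with the highest value of mmu-mir-200a-5p held 18 reads of it. In KO males neither strand was called with all libraries, and without FA replicate 3 both rose, by 1.96 for mmu-mir-200a-5p (limma adjusted p = 0.00863) and by 2.97 for mmu-mir-200b-5p (limma adjusted p = 5.13e-05). mmu-mir-141-5p was at 0, 0 and 16.4 after FA and at 4.52, 1.25 and 5.41 after O3 in KO males, between 0 and 11 reads, and was not tested.

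Of other miRNAs known from epithelial cells, mmu-mir-375-3p and mmu-mir-182-5p rose with the family in KO females. The list of 6 holds mmu-mir-375-3p, known from secretory and neuroendocrine epithelium, the cluster of mmu-mir-182-5p, mmu-mir-183-5p and mmu-mir-96-5p, and mmu-mir-203-3p and mmu-mir-205-5p, known from basal and squamous epithelium. In KO females 2 of the 6 tested rose and 0 fell, with 4 of 6 above FA in every O3 library, beside 10% and 19.1% of all miRNAs. mmu-mir-375-3p rose by 4.17 (limma adjusted p = 0.00523), from 251 ± 207 after FA to 3523 ± 1045 after O3 (SD, n = 3). mmu-mir-182-5p rose by 2.51 (limma adjusted p = 0.0126). In KO males 0 of 6 were called with all libraries, and 4 of 6 rose without FA replicate 3, beside 13.8% of all miRNAs. In co-ex females 0 of 5 and in co-ex males 0 of 6 were called, with a median change of 0.11 and -0.11.

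The list of multiciliated airway cells holds 6 miRNAs of the mir-34b/c and mir-449 clusters. In KO females 4 of 5 tested rose, beside 10% of all miRNAs, with mmu-mir-34c-3p higher by 7.004 (limma adjusted p = 0.00523) and mmu-mir-34b-3p by 4.25 (limma adjusted p = 0.00523). In KO males 1 of 5, mmu-mir-34b-3p, rose by 3.65 with all libraries (limma adjusted p = 0.0756), beside 0.909% of all miRNAs, and 5 of 5 rose without FA replicate 3, beside 13.8%. In co-ex females 0 of 5 and in co-ex males 0 of 4 were called. The family rose by less than mmu-mir-34b-3p and mmu-mir-34c-3p in KO females, except for mmu-mir-141-3p, and these differences between miRNAs were not tested.

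The summed levels show where the lists and the family followed each other. In KO females the family was between 1227 and 3432 RPM after FA and between 13995 and 23893 RPM after O3, the other epithelial list between 433 and 1402 RPM and between 6835 and 13306 RPM, and the multiciliated list between 201 and 1103 RPM and between 9728 and 19040.3 RPM. None of these ranges overlap. The myeloid list was between 8687 and 12059 RPM after FA and between 7733 and 8981 RPM after O3 in KO females, which overlap, and 0 of its 7 members were called. One of the 7, mmu-mir-223-3p, was lower in every O3 library (3386 ± 496 after FA and 2399 ± 298 after O3, SD, n = 3), with a change of -0.49 (limma adjusted p = 0.233). In co-ex females the multiciliated list was already between 11356 and 26239 RPM after FA and was between 13617 and 24755 RPM after O3. The other epithelial list was between 6950 and 13953 RPM after FA and between 7885 and 12036 RPM after O3 in co-ex females, so both lists overlapped while the family reached from 4737 to 16041 RPM after FA and from 7920 to 35800 RPM after O3. In co-ex males O3 replicate 2, the library with the highest level of the family, the multiciliated list was at 22480.5 RPM and the other epithelial list at 12692.5 RPM, the highest of the 8 libraries in both. How much of the family's level came from epithelial cells among the AM was not tested.

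**Figure D4:**
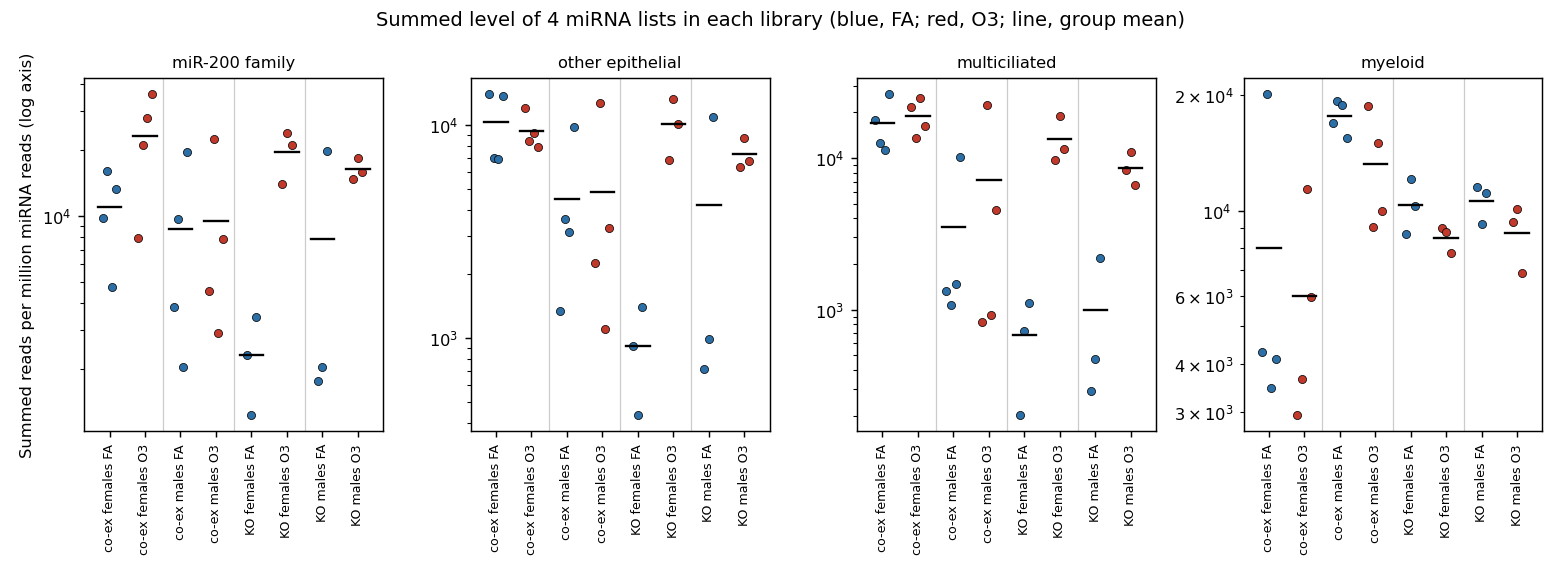
Summed level (RPM, log axis) of the miR-200 family, 6 other epithelial miRNAs, 6 multiciliated miRNAs and 7 myeloid miRNAs in each library, with blue points for FA, red points for O3 and a black line for the group mean. The first 3 lists separate FA from O3 in KO females, and the myeloid list spans 7733 to 12059 RPM there.

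The summed levels of endothelial and of mesenchymal miRNAs were also higher after O3 in KO females, though no miRNA of either list was called. The red cell, lymphocyte and myeloid lists had a median change below 0 there, whereas the 1 muscle miRNA tested had a change of 3.61. It was -0.84 for the red cell list, -0.83 for the lymphocyte miRNA and -0.46 for the myeloid list, with none of their miRNAs called. The endothelial sum was between 8.97 and 15.99 RPM in KO females FA and between 48.9 and 674 RPM in KO females O3. Both endothelial miRNAs were above FA in every O3 library, beside 19.1% of all miRNAs. Neither was called (limma adjusted p = 0.113 for mmu-mir-126a-3p and 0.157 for mmu-mir-126a-5p). The endothelial sum was at most 137 RPM in the co-ex libraries and 7177 RPM in KO males FA replicate 3. The mesenchymal sum was between 132 and 726 RPM in KO females FA and between 878 and 4419 RPM in KO females O3, which do not overlap. Of the 3 mesenchymal miRNAs tested there, 1 was above FA in every O3 library, beside 19.1% of all miRNAs, and 0 were called. Without KO males FA replicate 3, 1 of 1 endothelial and 2 of 3 mesenchymal miRNAs tested rose in KO males, beside 13.8% of all miRNAs. The part of these cells in the family's change was not tested. The lymphocyte miRNA mmu-mir-150-5p was at most 5752 RPM, in KO males FA replicate 3, and was not called in any table. A muscle sum of 85312 RPM in KO females O3 replicate 3 was set against at most 124 RPM in KO females FA, and 0 of 1 muscle miRNA tested was called. The same library held the highest endothelial sum of KO females O3, 674 RPM against 48.9 and 180 RPM in replicates 1 and 2. It also held the highest mesenchymal sum, 4419 RPM against 878 and 1972 RPM. The red cell list reached 137286 RPM in co-ex females FA, and 1 of its 2 tested miRNAs, mmu-mir-486b-5p, fell by 3.19 on the log2 scale after O3 (limma adjusted p = 0.0341), the 1 miRNA called in that table.

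The 5 miRNAs other than the members with the profile most like the family were found by the root mean square difference from the mean of 4 members. It was taken over the 28 libraries, on log2(value + 1) with the mean of each table subtracted. Of 226 miRNAs compared, mmu-mir-30a-5p was the most like the family, at 0.45. Next was mmu-mir-200b-5p at 0.48, which is the other strand of a hairpin of the family. mmu-mir-182-5p followed at 0.59, mmu-mir-151-3p at 0.62 and mmu-mir-151-5p at 0.74. The members themselves were between 0.26 and 0.42 from their own mean, and the median over the 226 was 1.52. Each of the 4 members enters that mean, which makes its distance smaller, so the members and the 226 are not compared on equal terms. The family profile had an SD of 1.27. The likeness is a description over libraries that share tables and depth.

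Of these 5, mmu-mir-30a-5p, a member of the widely expressed miR-30 family, rose by 2.38 in KO females (limma adjusted p = 0.00523), from 1106 ± 324 after FA to 5937 ± 2247 after O3 (SD, n = 3). mmu-mir-151-3p rose by 2.77 in KO females (limma adjusted p = 0.0190). mmu-mir-151-5p, from the same hairpin, had a change of 1.22 that was not called (limma adjusted p = 0.147), although its O3 libraries were all above its FA libraries. None of the 5 was called in the other tables with all libraries. All 5 rose in KO males without FA replicate 3, beside 13.8% of all miRNAs. The change there was 1.48 (mmu-mir-151-5p) to 2.97 (mmu-mir-200b-5p), with a limma adjusted p between 1.83e-05 and 0.00306. The 5 were picked by a likeness that includes the difference between O3 and FA within each table. Their changes with O3 follow in part from that choice and are no separate support. With the mean of each group subtracted in place of that of each table, mmu-mir-30a-5p was again the most like, at 0.34, followed by mmu-mir-200b-5p at 0.40, mmu-mir-151-5p at 0.41, mmu-mir-182-5p at 0.52 and mmu-mir-151-3p at 0.52, against a median of 1.19. By that measure mmu-let-7c-5p, named after its value was seen, was at 0.38 and took the place of mmu-mir-151-3p among the 5 nearest.

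**Figure D5:**
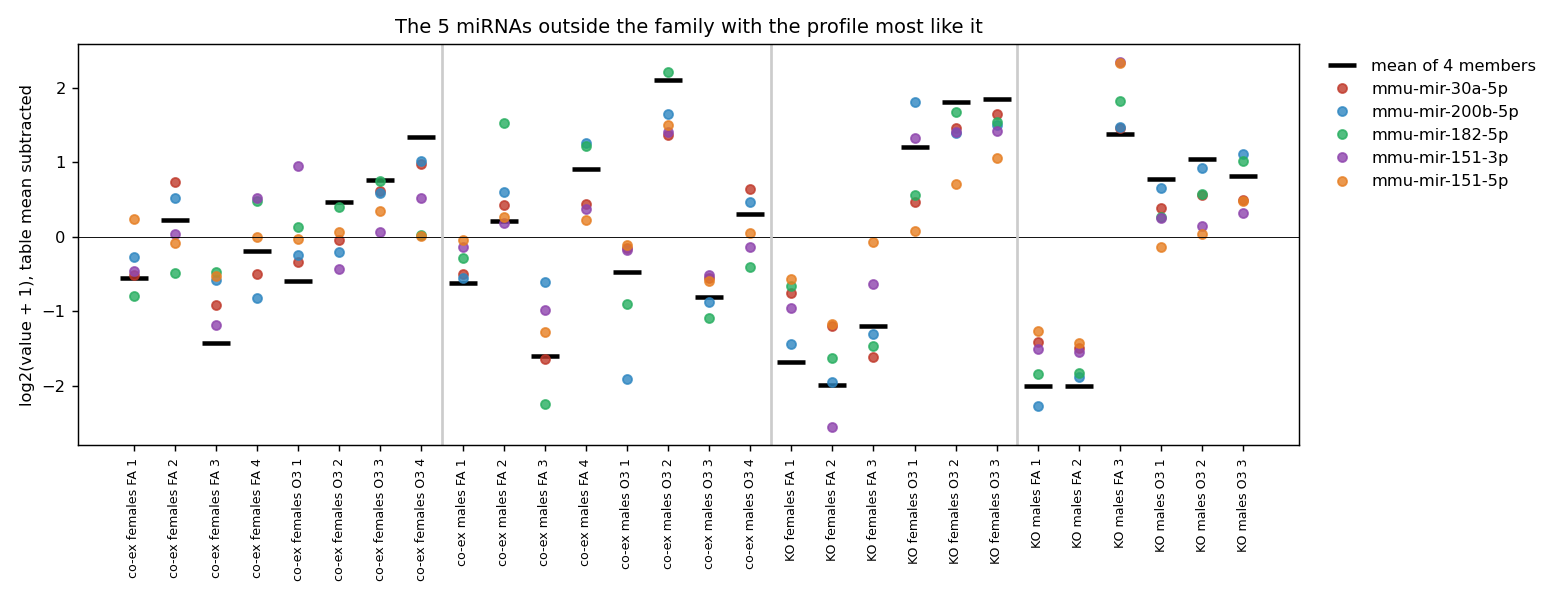
Profile of the family (black bars, mean of 4 members) and of the 5 miRNAs most like it (coloured points) over the 28 libraries, as log2(value + 1) with the mean of each table subtracted; grey lines divide the tables. In KO females the FA libraries of all 6 profiles lie below 0 and the O3 libraries above it, and in KO males FA replicate 3 lies above the O3 libraries.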

How the data were processed

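The authors sequenced 1 small RNA library per sample on an Illumina HiSeq, trimmed reads with the FASTX-Toolkit, aligned and counted them with Chimira, and used edgeR and TCC 1.14.0 for their comparisons. The genome build of that step is not given in the sources used here. The deposited library columns hold a signal, the reads on a miRNA over the size factor of the library, and each of the 4 tables (one for each line and sex) was normalized separately. These values fell on whole multiples of the worth of 1 read within 2%, which gave back the reads of all 28 libraries. Columns of the authors' own comparisons (fold changes, p-values, ranks) were not used. The study states 4 animals per group, whereas the KO groups have 3 libraries here.

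O3 and FA were compared in each table by limma 3.58.1 (R 4.3.3) with an intensity-dependent prior and a pseudocount of 1, before log2. A miRNA entered when as many libraries as in the smaller group reached 5 (3 in KO, 4 in co-ex, and 1 fewer where a library was left out), p-values were adjusted by Benjamini and Hochberg over all that entered, and calls needed an adjusted p under 0.1. Fold changes of low miRNAs are understated on this scale. Differences between tables were interaction terms over miRNAs that entered in both. All 36 pairs of replicates differed by at least 24.4 times the counting variance, so they were not repeat sequencing of a shared library. Whether each library came from its own mouse cannot be seen from this. Each library was counted as its own sample. Alternatives were edgeR 4.0.16 and, within tables, DESeq2 1.42.0 on recovered reads, the library total as scale, no filter, 0.1 as pseudocount, 0.05 as threshold, a replicate block, and leaving out each library. The scripts were tested on simulated data.

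The members, lists and tests were chosen with earlier results of these data known. Named miRNAs are the 5 members, their other strands, members of the marker lists described, and the 5 others with the smallest root mean square difference from the members. Sequences are from RefSeq (GRCm38.p6), gene overlaps from GENCODE on GRCm38, and figures from matplotlib 3.10.9.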

Additional observations from a re-analysis of the deposited data

Results flagged for a closer look

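In co-ex males O3, the value of mmu-mir-429-3p in replicate 2, 837, stood apart from the other 3 libraries, with a gap to the nearest of 0.888 of the range of the group, past the 95% critical value of Dixon's test for 4 libraries. This was 1 of 20 sets of 4 libraries examined, and chance sets apart about 1 in 20.

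The change with O3 differed between KO and co-ex females for 2 members, by 2.64 on the log2 scale for mmu-mir-200a-3p and by 2.68 for mmu-mir-429-3p. The limma adjusted p of the interaction was 0.0844 and 0.0284. That of mmu-mir-200a-3p was lost in 10 of 14 fits that left out a library. In KO females every O3 library was above every FA library for 5 of 5 members, called here or not, and for 19.1% of all miRNAs. The groups of mmu-mir-429-3p did not overlap in co-ex females either, so this separation does not set the lines apart.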

How the results depend on the processing

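In KO females 5 members were called under every alternative except the fit without O3 replicate 3 (between 4 and 5 when a library was left out), and over all alternatives the change was between 3.26 and 4.05 for mmu-mir-200a-3p, 2.76 and 3.64 for mmu-mir-200b-3p, 2.15 and 2.86 for mmu-mir-200c-3p and 3.27 and 4.10 for mmu-mir-429-3p. In KO males the number of members called was between 0 and 5 when a library was left out, and 0 otherwise. The number of all miRNAs called in KO males was 4, and it was 2 with edgeR, 15 with DESeq2, 2 at a threshold of 0.05 and between 0 and 88 when a library was left out. Leaving out FA replicate 3 gave 86 of 479 miRNAs with the filter set anew and 88 of the same 440 miRNAs, the latter chosen after seeing the data. In the other tables that range was 25 to 52 in KO females (42 with all) and 0 to 1 in co-ex females.

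In the difference between KO and co-ex females the 2 members called became 4 on the scale of the library total and 1 at a threshold of 0.05, and between 1 and 4 when a library was left out, and the 21 miRNAs called became 32, 12, and between 9 and 31. In the difference between sexes in co-ex 1 miRNA was called with edgeR, and between 0 and 1 when a library was left out.

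Scaling to the library total moved the median change of all miRNAs by 0.24 in KO males, 0.19 in KO females and -0.10 in co-ex males. The samples share replicate numbers across FA and O3, but the deviations of equally numbered libraries did not go together (correlations from -0.28 to 0.23). With so few libraries in a group, this cannot show whether equal numbers mark a pair, and the labels do not state it. With the replicate number as a block, 1 miRNA was called in KO males and 1 member in the difference between KO and co-ex females.

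Signs turned only where the change was small against its error. When a library was left out, the change was between -0.12 and 1.29 for mmu-mir-141-3p in co-ex females. For co-ex males it lay between -0.37 and 0.74 for mmu-mir-200b-3p and between -0.47 and 0.48 for mmu-mir-200c-3p. The male minus female difference in co-ex was then between -0.46 and 0.69 for mmu-mir-200a-3p and between -0.75 and 0.37 for mmu-mir-429-3p, and that of mmu-mir-200c-3p in KO between -1.45 and 0.38. With edgeR, the difference between KO and co-ex males was -0.0487 for mmu-mir-200a-3p and -0.22 for mmu-mir-429-3p, and that between sexes in co-ex was -0.20 and 0.31. On the scale of the library total the latter was -0.0073 for mmu-mir-200a-3p. The cause was not tested. Of 591 values of members under alternatives, 536 kept direction and call, 12 lost a call, 17 gained one and 26 turned sign. The shallowest library held 41542 reads. mmu-mir-141-3p is limited by counting in many libraries, with at most 3 reads in 11 of 28, whereas it held between 131 and 260 reads in KO males O3.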
